A study of Homo sapiens with 4 samples.

Results

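A set of 10 genes that p53 can activate and whose products act in growth arrest, DNA repair or the stress response was followed. The data were RNA-seq of cells labelled HepG2. The genes were GADD45A, GADD45B, BTG2, PLK2, PLK3, SESN1, SESN2, ZMAT3, RRM2B and XPC. They were picked by gene symbol, with earlier results of these data known. All 10 were among the 59050 genes of the deposited count tables, and all 10 were among the 17479 genes that passed the filter on low counts. HepG2 is a line of hepatocellular carcinoma cells. The labels describe 4 libraries in 2 groups of 2 biological replicates. Untreated cells were taken at 0 h, and the other cells had received doxorubicin, an anthracycline that poisons topoisomerase II and breaks DNA, at 1 ug/ml for 24 h in order to raise p53. Both groups are labelled with the same line, and no other agent is named. The treatment tag of the treated samples reads p53-miRNA, whereas their titles and the treatment text name p53 and doxorubicin, and the titles were followed. The titles of the untreated samples read nop53, while their treatment tag reads untreated, and what nop53 stands for is not explained in the labels. The groups differ in doxorubicin, in time (0 h against 24 h) and in this p53 label together. The effects of p53, other effects of doxorubicin and effects of time therefore cannot be told apart.

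p53 is a transcription factor that is held at a low level by its ubiquitin ligase MDM2 and accumulates when DNA is damaged. It then binds DNA as a tetramer and raises transcription of genes that stop the cell cycle, repair DNA, restrain growth signalling or start apoptosis. The genes described here belong to the arrest, repair and stress arms. Several of them, among them GADD45A, GADD45B, BTG2, PLK2, PLK3 and SESN2, are also known to respond to stress and growth signals without p53.

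The libraries held between 27572740 and 36272180 counts, and 3 counts corresponded to at most 0.109 CPM, which is a count divided by the total of its library and multiplied by 1000000. The untreated replicates were 0.87 apart on the log2 scale in the median gene, against 0.25 for the doxorubicin replicates. Untreated replicate 2 stood apart, with a count on 31258 genes against 25734 to 27609 in the other libraries and with 0.331% of its counts on 89 histone genes against 0.0459% to 0.0565%. AFP, TF, FGB and HNF4A were the only liver markers of 12 that had enough counts for testing, and the list summed to between 1.05 and 6.24 CPM in the 4 libraries. ALB, the defining serum protein of hepatocytes, had at most 0.109 CPM. APOA1, APOB, APOH, TTR, SERPINA1 and AHSG had at most 0.242 CPM. These liver markers were thus near 0 in libraries labelled HepG2. Of 4 markers of simple epithelium, the keratins KRT8 and KRT18 were abundant, with 2088 to 4105 CPM for KRT8. The other markers of that list, EPCAM and CDH1, had at most 0.242 and 0.727 CPM and too few counts for testing. Of 5 squamous markers, KRT17 had 928.6 to 1587 CPM, KRT14 had 2.39 to 7.43 CPM, and KRT5, KRT6A and TP63 had at most 0.4502 CPM. The summed level of 5 fibroblast markers lay between 165.5 and 279.7 CPM, that of 2 endothelial markers between 2.07 and 9.68 CPM, that of 3 intestinal markers between 0 and 1.07 CPM, and that of 3 leukocyte markers between 0.0583 and 0.485 CPM. Their part in the results that follow was not tested. In such bulk libraries a smaller number of cells of a type and less RNA in each cell cannot be told apart.

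With all 4 libraries, doxorubicin did not separate from untreated cells in any of the 10 genes. In CPM the groups overlapped in all 10, as 0 genes had both doxorubicin libraries above both untreated libraries (30.3% of all genes tested) and 0 had both below (11.5%). With edgeR's quasi-likelihood test, 0 of the 10 genes were called, where a call needed a change of at least 1 log2 unit either way with adjusted p below 0.05. The same test called 0 of the 17479 genes (0%), and an unadjusted p-value under 0.05 was reached by 0 of the 10 genes and by 768 of all genes tested (4.39%). DESeq2 also called 0 of the 10, against 0.801% of its 18094 genes with an adjusted p-value, and BTG2, the only one of the 10 under 0.05 before adjustment there, had an adjusted p of 0.526 (DESeq2). With the replicate number as a block, 0 of the 10 and 0.114% of all genes were called. The log2 fold change of doxorubicin over untreated cells was above 0 in 4 of the 10 genes and below 0 in 6, with a median of -0.30, while 50.8% of all genes tested were above 0 and their median was 0.01.

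The estimates moved with untreated replicate 2. That library was the highest of the 4 libraries in 7 of the 10 genes, as it was in 36.6% of all genes tested. Without it, the log2 fold change was above 0 in 10 of the 10 genes, against 54.3% of all genes, with a median of 0.36 against 0.05. In this reduced comparison 1 of the 10 genes, GADD45A, was called, beside 815 of 18356 genes (4.44%). The same comparison called KRT8 and the endothelial cadherin gene CDH5 lower and the liver marker FGB higher, and their part in the values of the 10 genes was not tested. The fibroblast markers were divided, as DCN (3.804 on the log2 scale) and LUM (1.04) were called higher, COL1A1 (-0.38) and COL3A1 (-0.60) were below 0 without a call, and COL1A2 had too few counts. In CPM, both doxorubicin libraries were above untreated replicate 1 in 9 of the 10 genes (53.1% of all genes), the exception being ZMAT3. On the scale corrected by TMM factors this held for 8 of the 10, with PLK2 as the second exception, against 40.0% of all genes. Without untreated replicate 1 in its place, 7 of the 10 genes were below 0 and 3 of them, GADD45B, BTG2 and PLK3, were called lower, in a comparison that called 44.4% of all genes. In each of these reduced comparisons the single untreated library is assumed to vary as the 2 doxorubicin libraries did.

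**Figure D1:**
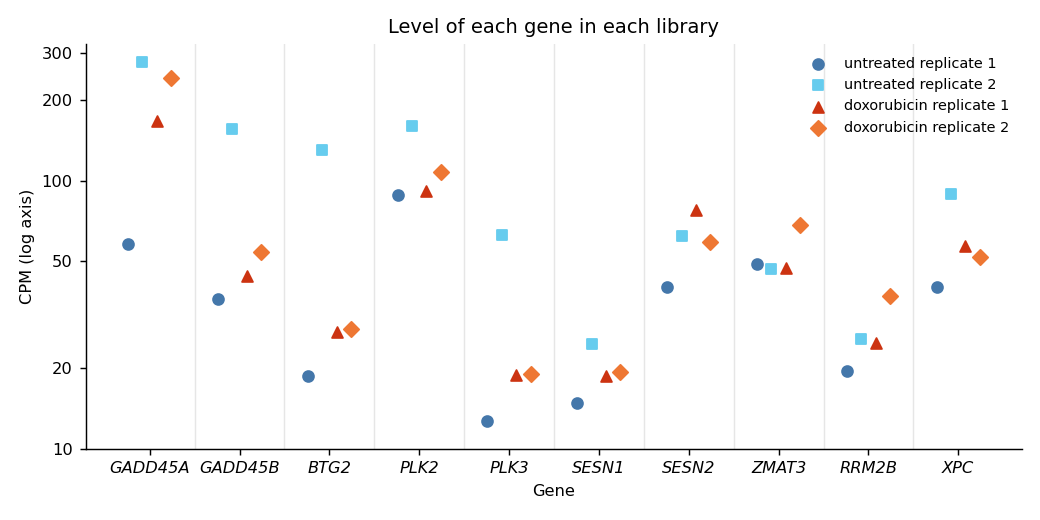
Level of each of the 10 genes in CPM (vertical log axis) in the 4 libraries, with a symbol for each library and no averaging. Untreated replicate 2 (light blue squares) is the highest point in 7 genes, and untreated replicate 1 (dark blue circles) is the lowest in 9, and the groups overlap in all 10 genes.

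GADD45A and GADD45B encode small acidic proteins that are made after DNA damage and other stresses, bind PCNA and the kinase CDK1, and switch on the MAP3K4 stress kinase. GADD45A (chromosome 1, 67685201 to 67688334, plus strand) had 57.9 CPM in untreated replicate 1, 277.1 CPM in untreated replicate 2, and 167.4 and 241.7 CPM in the doxorubicin replicates (all pairs of values are given in this order). The doxorubicin libraries thus lay inside a range that the untreated libraries spanned with a 4.78-fold difference. Its group means were 167.5 ± 155 CPM in untreated and 204.5 ± 52.5 CPM in doxorubicin-treated cells (SD, n = 2 each). Its log2 fold change was 0.13 with a standard error of 0.71 (edgeR, adjusted p = 0.962 by the method of Benjamini and Hochberg over all genes). Without untreated replicate 2 GADD45A rose, by 1.67 on the log2 scale with a standard error of 0.25 (adjusted p = 3.4e-09 from the same edgeR test). In CPM without TMM factors, the doxorubicin mean was 3.53 times untreated replicate 1. Against untreated replicate 2 alone the difference turned to -0.53 (adjusted p = 0.0325, edgeR), under the size required for a call.

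GADD45B (chromosome 19, 2476122 to 2478259, plus strand) had 36.2 and 155.8 CPM in untreated cells and 44.01 and 54.0 CPM after doxorubicin. Here the doxorubicin libraries were close to untreated replicate 1 and far from untreated replicate 2. The log2 fold change was -1.13 with a standard error of 0.69 (adjusted p = 0.773, edgeR), and without untreated replicate 2 it was 0.29 with a standard error of 0.25 (adjusted p = 0.563, edgeR). BTG2 (chromosome 1, 203305491 to 203309602, plus strand) encodes an antiproliferative protein that brings the CCR4-NOT deadenylase to mRNAs. It had 18.6 and 130.2 CPM in untreated cells and 27.2 and 28.0 CPM after doxorubicin. The difference between its untreated replicates, 6.99-fold, was the widest of the 10 genes, while its doxorubicin replicates were 1.03-fold apart. BTG2 had a log2 fold change of -1.58 with a standard error of 0.87 (adjusted p = 0.773, edgeR). Without untreated replicate 2 it was 0.42 with a standard error of 0.26 (adjusted p = 0.396, edgeR).

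PLK2 and PLK3 encode polo-like kinases that respond to stress, in contrast to PLK1, the kinase of mitotic entry. PLK3 (chromosome 1, 44800377 to 44805990, plus strand) had 12.7 and 62.8 CPM in untreated cells and 18.8 and 19.0 CPM after doxorubicin, the order of libraries seen for BTG2. Its log2 fold change was -1.15 with a standard error of 0.76 (adjusted p = 0.773, edgeR), and 0.43 with a standard error of 0.28 without untreated replicate 2. A gene of the opposite strand, DYNLT4, overlaps an exon of PLK3. DYNLT4 had no more than 28 counts in any library, against at least 461 for PLK3. The use of strand in the counting is not given, so reads of the shared stretch cannot be told apart. PLK2 (chromosome 5, 58453982 to 58460139, minus strand) varied less, with 88.7 and 159.5 CPM in untreated cells and 91.7 and 107.4 CPM after doxorubicin. Its log2 fold change was -0.48 with a standard error of 0.39 (adjusted p = 0.778, edgeR). Without untreated replicate 2 it was 0.02 with a standard error of 0.23 (adjusted p = 0.978, edgeR), the value nearest to 0 among the 10 genes in that comparison.

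GADD45B, BTG2, PLK3 and GADD45A were the 4 genes with the widest gap between the untreated replicates, 4.30 to 6.99-fold, and the other 6 genes were between 0.961 and 2.21-fold apart. The 250 bases before the RefSeq start site (GRCh38.p14) of 3 of these 4 genes are shown because they moved together between the untreated libraries, followed by those of PLK2 and SESN1, in which the decamer motif of p53 was found. Capitals mark matches on either strand to the TATA box TATAAA, the CCAAT box CCAAT, the core of the cAMP response element TGACG and the p53 decamer. The windows lie at chr19:2475877-2476126 (plus strand) for GADD45B, chr1:203305269-203305518 (plus) for BTG2, chr1:44800127-44800376 (plus) for PLK3, chr5:58460087-58460336 (minus) for PLK2 and chr6:109008989-109009238 (minus) for SESN1.
GADD45B: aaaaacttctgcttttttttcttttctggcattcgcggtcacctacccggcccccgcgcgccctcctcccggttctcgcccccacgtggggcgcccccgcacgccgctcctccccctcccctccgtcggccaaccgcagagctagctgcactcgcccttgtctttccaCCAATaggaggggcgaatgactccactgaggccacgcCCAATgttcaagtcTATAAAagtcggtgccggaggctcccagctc
BTG2: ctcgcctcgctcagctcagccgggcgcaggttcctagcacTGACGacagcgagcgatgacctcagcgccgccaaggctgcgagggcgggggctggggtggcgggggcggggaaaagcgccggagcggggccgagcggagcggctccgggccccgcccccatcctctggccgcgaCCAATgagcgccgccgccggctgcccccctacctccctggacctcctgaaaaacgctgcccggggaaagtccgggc
PLK3: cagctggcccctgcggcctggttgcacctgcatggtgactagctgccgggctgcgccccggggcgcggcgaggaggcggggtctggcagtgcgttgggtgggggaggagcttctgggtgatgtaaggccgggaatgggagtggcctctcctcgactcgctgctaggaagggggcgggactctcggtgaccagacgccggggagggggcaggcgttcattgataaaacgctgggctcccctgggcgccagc
PLK2: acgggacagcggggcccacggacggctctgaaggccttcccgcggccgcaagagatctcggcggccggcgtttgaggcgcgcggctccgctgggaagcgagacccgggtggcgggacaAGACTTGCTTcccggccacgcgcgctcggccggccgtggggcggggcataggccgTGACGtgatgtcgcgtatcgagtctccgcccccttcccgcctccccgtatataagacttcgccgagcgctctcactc
SESN1: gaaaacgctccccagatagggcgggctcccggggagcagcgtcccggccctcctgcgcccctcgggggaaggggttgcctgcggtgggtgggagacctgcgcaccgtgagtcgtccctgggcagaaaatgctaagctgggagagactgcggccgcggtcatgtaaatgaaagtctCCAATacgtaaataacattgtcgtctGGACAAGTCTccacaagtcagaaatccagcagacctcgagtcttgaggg

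RefSeq windows were used for 8 of the 10 genes, with 11 windows in all, since SESN1 has 3 and ZMAT3 has 2 start sites. GADD45A had no window in this set, and none was used for RRM2B. Windows on chromosome 8, where RRM2B lies, were left out for the 10 genes but kept among all windows. The p53 decamer was present in 2 of the 11, at -132 in PLK2 and at -49 in SESN1 (positions count from the start site), and in 5.58% of all 34943 windows of this length. Only single decamers were searched, and adjoining pairs of them were not. The exact letters TATAAA were present in GADD45B only, at -31 (10.8% of all windows), and looser forms of the TATA box were not searched. CCAAT boxes were present in 6 of the 11 windows, at -82 and -45 in GADD45B and at -76 in BTG2 (32.0% of all windows), and PLK3 had none. The TGACG core was present in 4 of the 11 windows (21.2% of all windows), among them BTG2 and PLK2, and the overlapping motifs TGACGTCA and TGANTCA in 0. The GC box GGGCGG was present in 9 of the 11 windows (42.5% of all windows) and GADD45B, the only gene without it in any window, was the only one with the E-box CACGTG (6.32% of all windows). GADD45B, BTG2 and PLK3, with the widest gap between the untreated replicates among the genes matched, had none of these motifs in common. A match describes letters in a fixed window, not a bound site.

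The sestrins SESN1 and SESN2 restrain the growth kinase mTORC1 through the GATOR complexes, and SESN2 also senses leucine. SESN2 (chromosome 1, 28259518 to 28282491, plus strand) had 40.0 and 62.3 CPM in untreated cells and 77.9 and 59.2 CPM after doxorubicin. Its highest library was doxorubicin replicate 1, but doxorubicin replicate 2 was below untreated replicate 2. The log2 fold change was 0.27 with a standard error of 0.40 (adjusted p = 0.842, edgeR). Without untreated replicate 2 it was 0.63 with a standard error of 0.25 (adjusted p = 0.102, edgeR), the second largest of the 10 genes, and it was 0.06 without untreated replicate 1. SESN1 (chromosome 6, 108984309 to 109094846, minus strand) had 14.8 and 24.6 CPM in untreated cells and 18.6 and 19.4 CPM after doxorubicin. Both doxorubicin libraries lay between the untreated libraries, and the log2 fold change was -0.21 with a standard error of 0.44, or 0.22 with a standard error of 0.27 without untreated replicate 2.

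ZMAT3 (chromosome 3, 178960121 to 179072215, minus strand) encodes a zinc finger protein that binds RNA and tunes splicing and stability of p53 pathway transcripts. It had 48.7 and 46.9 CPM in untreated cells, the closest pair of untreated values among the 10 genes, and 47.2 and 68.4 CPM after doxorubicin. Doxorubicin replicate 1 was at the untreated level and only replicate 2 was above it. The log2 fold change of ZMAT3 was 0.11 with a standard error of 0.35 (adjusted p = 0.929, edgeR), and it was 0.09 and 0.21 without untreated replicates 2 and 1. ZMAT3 was the gene in which leaving out an untreated library moved the estimate least.

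RRM2B and XPC act in repair. RRM2B (chromosome 8, 102204502 to 102238961, minus strand) encodes the small subunit of ribonucleotide reductase that supplies deoxynucleotides outside S phase. It had 19.5 and 25.7 CPM in untreated cells and 24.8 and 37.1 CPM after doxorubicin, so that only doxorubicin replicate 2 was above both untreated libraries. The log2 fold change was 0.29 with a standard error of 0.41 (adjusted p = 0.837, edgeR), and it was 0.51 with a standard error of 0.26 without untreated replicate 2 (adjusted p = 0.265, edgeR). XPC (chromosome 3, 14145147 to 14178621, minus strand) encodes the protein that finds helix distortions for nucleotide excision repair. It had 40.1 and 88.8 CPM in untreated cells and 57.3 and 51.8 CPM after doxorubicin. Its log2 fold change was -0.39 with a standard error of 0.47 (adjusted p = 0.816, edgeR) and turned to 0.30 with a standard error of 0.25 without untreated replicate 2. Genes on the opposite strand overlap exons of XPC and SESN1. The use of strand in the counting is not given in the sources used here, so reads of these pairs cannot be told apart.

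**Figure D2:**
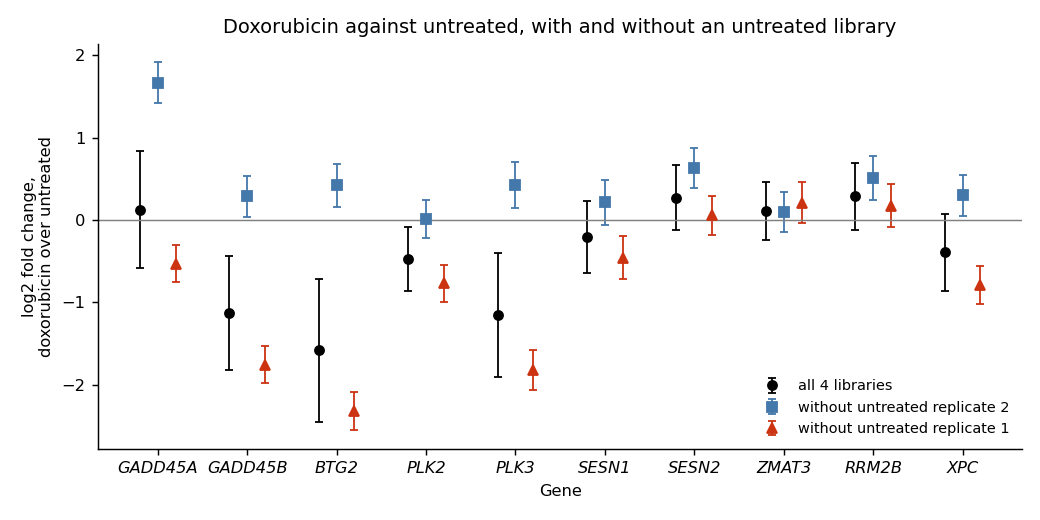
Log2 fold change of doxorubicin over untreated cells from edgeR (vertical axis) for each gene, with bars of 1 standard error, from all 4 libraries, without untreated replicate 2 and without untreated replicate 1. The squares without untreated replicate 2 lie above 0 in all 10 genes, with GADD45A at 1.67, and the triangles without untreated replicate 1 lie below 0 in 7.

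Per length of annotated exons (GENCODE 44), GADD45A had the highest mean level over the 4 libraries, 137.6 CPM per kb, followed by GADD45B with 46.6, PLK2 with 39.4 and BTG2 with 18.7 CPM per kb. SESN1 had the lowest, 3.17 CPM per kb. GADD45A was the highest of the 10 in each library, with 42.8 and 205.0 CPM per kb in untreated cells and 123.8 and 178.8 CPM per kb after doxorubicin. The order below it depended on the library, as PLK2 (31.3 CPM per kb) was above GADD45B (23.3 CPM per kb) in untreated replicate 1 and under it in untreated replicate 2 (56.2 against 100.1 CPM per kb).

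The ratio of counts of 2 genes in the same library does not depend on how the libraries are scaled. GADD45A had 1.60 and 1.78 times the counts of GADD45B in the untreated libraries, against 3.804 and 4.47 times in the doxorubicin libraries. For this pair the untreated libraries lay together, 0.15 apart on the log2 scale, and both doxorubicin libraries were above them by at least 1.10. The ratio of SESN1 to SESN2 was 0.369 and 0.395 in untreated and 0.239 and 0.328 in doxorubicin-treated cells, with both doxorubicin libraries below the untreated ones. The ratio of PLK2 to PLK3 was 6.98 and 2.54 in untreated and 4.87 and 5.66 in doxorubicin-treated cells, and the groups overlapped. With 2 libraries in each group, an exact two-sided permutation test cannot go below p = 0.333, so that no test of these ratios was made.

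Over all 45 pairs of the 10 genes, a choice made after seeing the data, the groups did not overlap in 11 pairs (24.4%). Among all pairs of genes tested that had counts in every library, the share was 38.8%, above that of the 10 genes. The pairs share genes and are not independent, and the shares were not compared by a test. GADD45A was in 4 of the 11 pairs, always higher after doxorubicin, relative to GADD45B, BTG2, PLK2 and PLK3. Relative to SESN1, SESN2, ZMAT3, RRM2B and XPC its groups overlapped. Against PLK2 the gap was only 0.071 on the log2 scale, while the untreated ratios lay 1.41 apart. GADD45B, BTG2 and PLK3 were, with GADD45A, the genes with the widest gap between the untreated replicates. Relative to PLK3, GADD45A had a ratio of 4.56 and 4.41 in untreated cells and 8.89 and 12.7 after doxorubicin. PLK2 was in 4 pairs and lower in each, relative to GADD45A, SESN1, SESN2 and RRM2B.

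**Figure D3:**
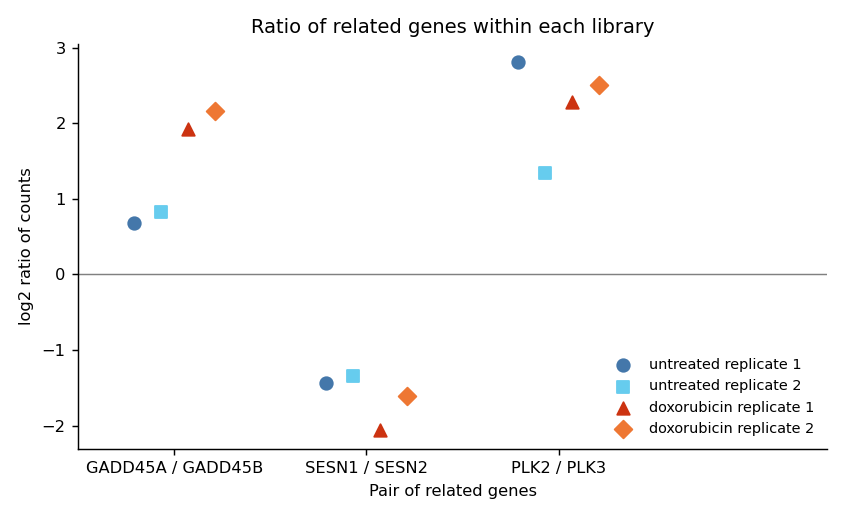
Log2 ratio of counts (vertical axis) within each of the 4 libraries for 3 pairs of related genes, GADD45A to GADD45B, SESN1 to SESN2 and PLK2 to PLK3. The doxorubicin points of GADD45A to GADD45B lie at 1.93 and 2.16, above the untreated points at 0.68 and 0.83, whereas those of PLK2 to PLK3 lie between the untreated points.

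Other genes around the 10 were taken as 3 lists. The first list held 23 other genes taken as activated by p53, which was not tested for any of them here. Of the 23, 20 were tested, 0 were called in either direction, 9 were above 0 and 11 below 0, and their median log2 fold change was -0.19. They reached from 1.26 for GDF15, a secreted stress cytokine, to -1.73 for SFN, the G2 checkpoint protein 14-3-3 sigma. Untreated replicate 2 was the highest library in 11 of the 20. Without it 13 were above 0 and 7 below, with a median of 0.21, and 4 were called, all higher. Among all genes of that comparison 54.3% were above 0 and 4.44% were called in either direction. The 4 were CDKN1A, the cell cycle inhibitor p21 (log2 fold change 1.16), GDF15 (2.01), CCNG2, an unconventional cyclin (1.69), and TRIM22, an antiviral ubiquitin ligase (2.56), which had only 0.221 CPM in untreated replicate 1. The level of CDKN1A was 380.1 and 865.6 CPM in untreated cells and 1003 and 880.3 CPM after doxorubicin. The CDKN1A groups did not overlap in CPM but overlapped on the TMM scale. In CPM, both doxorubicin libraries were above both untreated libraries in 6 of the 20 genes (30.3% of all genes) and below them in 3 (11.5% of all genes). CDKN1A was the only one of these that overlapped on the TMM scale. MDM2 had 43.0 and 32.1 CPM in untreated cells and 54.8 and 56.6 CPM after doxorubicin, without overlap on either scale. Its log2 fold change was 0.41, without a call, and 0.23 without untreated replicate 2.

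Paralogs of the 10 genes showed 0 calls among the 9 of 13 that were tested, with 3 above 0 and 6 below 0 and a median of -0.34. Their log2 fold changes were between 0.44 for TOB1, an antiproliferative relative of BTG2, and -1.01 for ZMAT5, a protein of the minor spliceosome. GADD45G and SESN3, the remaining members of the GADD45 and sestrin families, did not pass the filter and had at most 0.495 and 0.277 CPM. PLK1 had 312.2 and 110.9 CPM in untreated and 201.3 and 170.9 CPM in doxorubicin-treated cells. Untreated replicate 2 was thus the lowest library for PLK1 and the highest for PLK2 and PLK3.

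Partners of the encoded proteins made a list of 25 genes, which was not cleared of genes that p53 activates. All 25 were tested, 0 were called, 12 were above 0 and 13 below 0, and the median was -0.00097. Without untreated replicate 2, 8 were above 0 and 17 below, the median was -0.24 and again 0 were called. Untreated replicate 2 was the highest library in 5 of the 25, against 7 of the 10. Their log2 fold changes reached from 0.77 for CASTOR1, an arginine sensor of the mTORC1 pathway that was at or under 0.525 CPM, to -0.76 for DDB2, a damage sensor of nucleotide excision repair. PCNA, the sliding clamp that GADD45 proteins bind, had 214.0 and 347.7 CPM in untreated and 181.7 and 195.9 CPM in doxorubicin-treated cells. RRM1, the large subunit with which RRM2B works, had 1091 and 1139 CPM in untreated and 977.6 and 1070 CPM in doxorubicin-treated cells. Neither gene passed the test (adjusted p = 0.773 for PCNA and 0.786 for RRM1, edgeR). In CPM, both doxorubicin libraries were below both untreated libraries for 3 of the 25 partners (PCNA, RRM1 and DDB1, against 11.5% of all genes) and above them for 3 (MIOS, NPRL2 and CASTOR1, against 30.3% of all genes). MIOS overlapped on the TMM scale. The partner RRM2, which overlapped in CPM, had both doxorubicin libraries below both untreated libraries on the TMM scale.

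**Figure D4:**
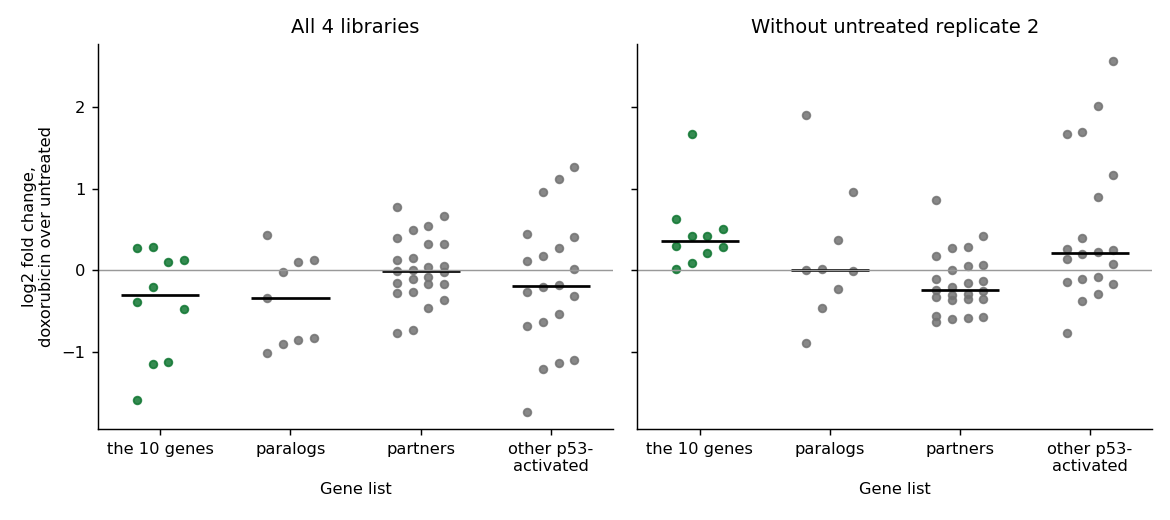
Log2 fold change of doxorubicin over untreated cells (vertical axis) for the tested genes of 4 lists, a point for each gene and a line at the median, from all 4 libraries (left) and without untreated replicate 2 (right). The median of the 10 genes moves from -0.30 to 0.36 and that of the partners from -0.00097 to -0.24.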

How the data were processed

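RNA-seq counts of 2 untreated and 2 doxorubicin-treated libraries were used, grouped by their titles. The authors filtered reads with FastQC and Cutadapt, mapped them to the human genome (hg38) with HISAT2 and counted them with HTSeq, as the methods state. The deposited values are raw counts for each gene and library, with GENCODE release 31 named in their header. Versions and strand use are not given in the sources used here.

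CPM was the count over the library total times 1000000. Testing used edgeR 4.0.16 under R 4.3.3 (low counts removed by filterByExpr, TMM factors of 0.944, 0.951, 1.02 and 1.09, glmQLFit in its current form, glmQLFTest, prior count 0.125) over all genes, and with DESeq2 1.42.0 as an alternative. Calls required a change of at least 1 log2 unit either way, with p adjusted by Benjamini-Hochberg below 0.05. Standard errors are the log2 fold change over the root of the F statistic. The code was tested on simulated data. Coordinates and exon lengths came from GENCODE 44 (GRCh38) and windows from RefSeq, with Python 3.11.15. DYNLT4 was matched to its older symbol in the counts. Floors of 3 counts cover counting error alone.

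The genes and lists were chosen with earlier results of these data known. The named genes were the 10 genes, the highest and lowest of each list, any called gene, CDKN1A and MDM2. GADD45G, SESN3, PLK1, PCNA, RRM1, RRM2, DDB1, MIOS, NPRL2, the cell type markers named and the motifs were chosen after their values were seen. Alternatives were DESeq2, RLE factors, library totals, no filter, a replicate block, leaving out each library in turn, and the prior count raised to 2. The combinations of a left-out library with other factors were chosen after seeing the data.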

Additional observations from a re-analysis of the deposited data

How the results depend on the processing

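The direction of all 10 genes, and the absence of a call among them, held with DESeq2, RLE factors, library totals alone, no filter, the replicate block and a prior count of 2. Over all genes, edgeR called 0 in the main comparison, DESeq2 145 and the replicate block 20. Across genes, the deviations of libraries that share a number correlated at 0.018, so the numbers were not taken as a pairing. Library totals alone moved the median of all genes from 0.01 to 0.17 and that of the 10 genes from -0.30 to -0.15, a like distance. The cause of these differences was not tested.

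With each library left out in turn, calls over all genes were between 0 and 8697, calls among the 10 genes between 0 and 3, genes above 0 between 2 and 10, and their median between -0.65 and 0.36. The log2 fold changes were between -0.53 and 1.67 for GADD45A, -1.76 and 0.29 for GADD45B, -2.32 and 0.42 for BTG2, -0.77 and 0.017 for PLK2, -1.82 and 0.43 for PLK3, -0.46 and 0.22 for SESN1, -0.79 and 0.30 for XPC, and -0.088 and 0.36 for ZMAT3. SESN2 (0.06 to 0.63) and RRM2B (0.07 to 0.56) stayed above 0. Without doxorubicin replicate 2, GADD45A was at -0.032 and ZMAT3 at -0.088, leaving 2 genes above 0.

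Without untreated replicate 2, RLE factors gave 746 calls, 1 of them among the 10 genes, and 9 genes above 0, with PLK2 as the exception. GADD45B, BTG2, PLK3, SESN1 and XPC were at 0.25, 0.38, 0.39, 0.18 and 0.26. Library totals gave 1075 calls, 1 of them among the 10, and 10 genes above 0 with a median of 0.51 (all genes 0.20). GADD45B, BTG2, PLK2, PLK3, SESN1 and XPC were then at 0.44, 0.57, 0.17, 0.57, 0.36 and 0.44. GADD45A was called under each of the 3 scalings (1.63 to 1.82).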
